A study of Mus musculus with 6 samples.

Results

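The genes described are 10 transcription factors of the AP-1 and immediate early group, chosen by name: the Jun proteins Jun, Junb and Jund, the Fos proteins Fos, Fosb and Fosl2, the related factors Batf and Atf3, and the zinc finger factors Egr1 and Egr2. All 10 were found among the 16440 genes of the deposited table, and all 10 passed the filter on low values that left 14595 genes to test. The expression data came from 6 RNA-seq libraries of sorted FVB N/J mouse cells, 3 of normal myeloid progenitors (MPs) and 3 of acute promyelocytic leukemia (APL) cells. Normal MPs were bone marrow cells without lineage markers, without Sca-1 and with c-Kit (Lin-Sca-1-c-Kit+). The APL cells carried the hMRP8-PML/RARα transgene, in which a myeloid promoter drives the fusion protein of APL, had been labeled with GFP by the retroviral vector MigR1, had been expanded by transplantation into syngeneic mice, and were sorted as GFP-labeled c-Kit+ cells. The age of the mice is not given in the labels, the labels of these 6 libraries name no drug, and the series text calls the 3 libraries of a group biological replicates without naming the mice. The p-values below therefore measure the spread between libraries.

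AP-1 is a dimer. Jun proteins pair with each other or with Fos proteins through a leucine zipper, and Batf and Atf3 are zipper proteins that also pair with Jun proteins. Fos, Fosb, Jun, Junb, Egr1, Egr2 and Atf3 are immediate early genes: mitogens, cytokines and stress raise their transcription within minutes, with no new protein needed, and their mRNAs decay quickly. Cell sorting, cooling and tissue dissociation are among the stimuli known to induce them. In the myeloid lineage Jun and Egr factors are known for their part in monocytic differentiation, and Jun proteins are partners of Batf in lymphoid and dendritic cells. In sorted bulk cells, a lower share of expressing cells and less mRNA per cell cannot be told apart.

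Egr1, Fosb, Fos and Jun were lower in c-Kit+ APL cells than in normal MPs, and Fosl2 and Batf were higher. In limma's fit across all genes with Benjamini-Hochberg adjustment, 4 of the 10 genes were called lower and 2 higher at an adjusted p under 0.05 with a change over 1.5-fold. Over all 14595 genes tested, 24.4% were called lower and 21.7% higher in APL cells. The calls of Egr1, Fosl2 and Batf were kept under all 16 alternative settings, whereas those of Jun, Fos and Fosb were lost when certain single libraries were left out. The groups did not overlap for 4 of the 10 genes, Junb, Fosl2, Batf and Egr1, against 70.9% of all genes tested. The median log2 fold change was 0.13 over the 10 genes and −0.10 over all genes tested. MP library 2 held the lowest MP value of 9 of the 10 genes, a count that was not made over all genes. The fold change of each of the 10 genes is given with and without that library.

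**Figure D1:**
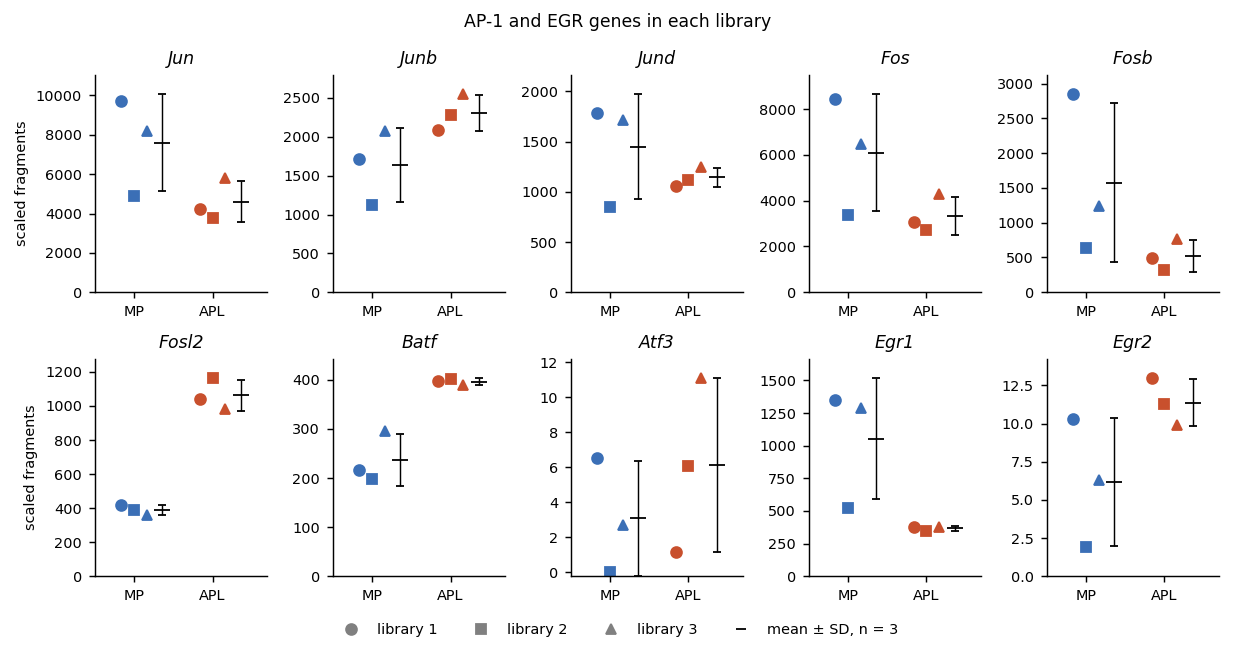
Scaled fragments (estimated fragments times a factor of the library) of each gene in MP libraries (blue) and APL libraries (red), on axes that include 0, with the mean ± SD of 3 libraries in black. The square of MP library 2 lies below the other MP libraries for all genes but Fosl2, and the APL values of Fosl2 and Batf lie wholly above the MP values.

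Levels of different genes were compared per length, in FPKM (fragments per kilobase of transcript, scaled to the mapped fragments of the library, as deposited). In MPs, Fos (111 ± 46.3 FPKM, SD, n = 3) and Jun (101 ± 32.4) were the most abundant of the 10, and their ranges overlapped. Junb (43.0 ± 11.3) came next, without overlap with Jun. Jund, Fosb, Egr1 and Batf followed with means from 22.7 down to 11.2 FPKM, and each overlapped its neighbour in this order. Fosl2 stood at 2.61 ± 0.210 FPKM, and Egr2 and Atf3 were below 0.14 FPKM in every MP library. In APL cells, Junb (62.0 ± 8.20), Fos (61.3 ± 15.2) and Jun (61.3 ± 14.3) were at levels that overlapped. Batf (19.7 ± 0.757) and Jund (18.4 ± 1.56) overlapped each other, and Fosl2 (6.98 ± 0.530), Fosb (6.20 ± 2.73) and Egr1 (5.20 ± 0.269) formed the next group. Thus Fosl2 stood below Fosb and Egr1 in MPs and was level with Fosb, and above Egr1 without overlap, in APL cells.

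The 250 bases before an annotated transcription start are shown for genes on which the comparison turns, the lower genes Fos and Fosb, the higher genes Fosl2 and Batf, and Egr2, the gene whose window held a CArG box, the site of serum response factor (SRF). The sequences are those of RefSeq on GRCm38.p6, whose promoter table held 9 of the 10 genes (all but Egr1). Each reads 5′ to 3′ on the strand of the gene: Fos at chr12:85473640-85473889 (plus strand), Fosb at chr7:19310046-19310295 (minus), Egr2 at chr10:67537619-67537868 (plus), Fosl2 at chr5:32136222-32136471 (plus) and Batf at chr12:85686470-85686719 (plus). Capitals mark the motifs found on either strand: the CArG box, the AP-1 sites TGACTCA and TGAGTCA, the CREB/ATF site TGACGTCA, its half-site TGACG, the EGR sites GCGTGGGCG and GCGGGGGCG, and the TATA box TATAAA. The half-site and the TATA box were added after the sequences had been read, and the half-site is also contained in the full CREB/ATF site.
Fos: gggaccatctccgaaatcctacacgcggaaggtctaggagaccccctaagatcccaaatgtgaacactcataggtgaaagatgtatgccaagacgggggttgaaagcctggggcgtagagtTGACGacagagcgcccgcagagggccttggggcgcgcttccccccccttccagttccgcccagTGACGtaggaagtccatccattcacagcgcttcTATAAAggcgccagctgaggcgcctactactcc
Fosb: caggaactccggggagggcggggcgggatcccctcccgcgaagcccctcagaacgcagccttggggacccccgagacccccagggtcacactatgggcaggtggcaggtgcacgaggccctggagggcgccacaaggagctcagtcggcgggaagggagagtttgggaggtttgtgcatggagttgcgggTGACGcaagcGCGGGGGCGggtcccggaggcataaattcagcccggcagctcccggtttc
Egr2: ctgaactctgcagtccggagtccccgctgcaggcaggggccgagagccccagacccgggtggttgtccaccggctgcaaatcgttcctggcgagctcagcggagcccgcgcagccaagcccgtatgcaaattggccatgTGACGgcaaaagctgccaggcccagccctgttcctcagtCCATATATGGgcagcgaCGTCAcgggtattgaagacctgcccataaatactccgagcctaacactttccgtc
Fosl2: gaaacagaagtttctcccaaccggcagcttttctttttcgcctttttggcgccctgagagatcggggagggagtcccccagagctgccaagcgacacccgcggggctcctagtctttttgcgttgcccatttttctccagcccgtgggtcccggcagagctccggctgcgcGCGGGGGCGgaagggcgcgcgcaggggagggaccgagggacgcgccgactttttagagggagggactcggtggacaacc
Batf: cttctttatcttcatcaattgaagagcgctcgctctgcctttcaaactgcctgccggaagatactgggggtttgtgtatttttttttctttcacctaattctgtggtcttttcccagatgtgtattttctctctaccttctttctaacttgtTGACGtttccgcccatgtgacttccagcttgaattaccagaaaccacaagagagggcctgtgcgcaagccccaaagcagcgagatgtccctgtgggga

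The half-site TGACG was in 6 of the 9 windows, those of Junb, Fos, Fosb, Atf3, Batf and Egr2, and in 17.8% of the 32851 promoter windows of the table. Fos held it at −129 and −66, upstream of its TATA box at −33, Fosb at −60 and Batf at −98, counted back from the start. Of the 5 Egr2 windows of the table, the one nearest to the deposited start of the gene was taken. The start behind the Egr2 window and that behind the Fosb window lie inside the RefSeq spans of these genes given below, which begin further upstream. An EGR site was in the windows of Fosb (−50) and Fosl2 (−79) and in 3.06% of all windows. The CArG box of Egr2 began at −72, and 1.47% of all windows held a CArG box. The full AP-1 and CREB/ATF sites were in 0 of the 9 windows, and in 4.46% and 1.55% of all windows. These are exact matches of letters within 250 bases, so that sites with other letters or further away were not counted. No binding was measured. Genes with the half-site include Fosb, which was lower in APL cells, and Batf, which was higher.

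Jun (Entrez 16476, on chromosome 4 of GRCm38 from 95049036 to 95052222) encodes the main activating partner of Fos. In library order, MPs held 9702, 4907 and 8209 scaled fragments of Jun, and APL cells 4232, 3789 and 5802. MP library 2 was the lowest MP library, and APL library 3 exceeded it. The mean was 7606 ± 2453 in MPs and 4608 ± 1058 in APL cells (SD, n = 3 each). Here and below, fold changes are those of limma's fit on log2(scaled fragments + 1), a ratio of geometric rather than arithmetic means. Jun was 1.61-fold lower in this fit, with −0.69 as its log2 fold change (SE 0.25, adjusted p = 0.033). This call was not kept without MP library 1 (−0.49, adjusted p = 0.092), MP library 3 (−0.61, 0.055), APL library 1 (−0.64, 0.084) or APL library 2 (−0.56, 0.11). Without MP library 2 the groups no longer overlapped and the difference was −0.98 (adjusted p = 0.00078, limma).

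Junb (16477, on chromosome 8 from 84976909 to 84978748, a gene with 1 annotated exon) encodes a Jun protein that is a weaker activator than Jun in many settings and restrains myeloid proliferation in mice. Its values were 1714, 1127 and 2077 scaled fragments in MPs and 2083, 2286 and 2547 in APL cells. All APL values lay above all MP values, although APL library 1 exceeded MP library 3 only narrowly. The log2 fold change was 0.53 (SE 0.20), 1.45-fold, with an adjusted p of 0.038 from limma, below the fold required for a call. It passed this fold without MP library 1 (0.59, adjusted p = 0.041), MP library 3 (0.72, 0.0019) or APL library 1 (0.60, 0.046), and with median ratio scaling (0.59, 0.015). It fell to 0.28 without MP library 2 (adjusted p = 0.061, limma). The adjusted p also exceeded 0.05 without APL library 2 (0.54, 0.082) or APL library 3 (0.46, 0.11), and with scaling to the same total (0.40, 0.058).

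Jund (16478, on chromosome 8 from 70697739 to 70700616) is the Jun gene that is expressed without a stimulus in most tissues. MP libraries held 1786, 847 and 1714 scaled fragments and APL libraries 1063, 1120 and 1246, so that the APL values lay between MP library 2 and the other MP libraries. The log2 fold change of −0.27 had a 95% interval from −0.84 to 0.30 (adjusted p = 0.37, limma). Without MP library 2 it was −0.62 with an interval from −0.84 to −0.39 (adjusted p = 0.00051), and Jund was then called lower. It was −0.08 without MP library 1 (adjusted p = 0.79) and −0.11 without MP library 3 (0.70). The 778 genes tested on chromosome 8 had a median log2 fold change of 0.48, and those of all other chromosomes −0.13. Junb was near that median, with 47.0% of the chromosome's genes above it, and Jund was below it, with 17.0% of the chromosome's genes lower still. Whether the position of the Jun genes on this chromosome bears on their values was not tested.

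Fos (14281, on chromosome 12 from 85473890 to 85477274) encodes the first Fos partner to appear after a stimulus. It had 8447, 3379 and 6468 scaled fragments in MPs and 3052, 2703 and 4288 in APL cells, with APL library 3 above MP library 2. The mean was 6098 ± 2554 in MPs and 3347 ± 833 in APL cells (SD, n = 3 each). The fit on log2 values gave −0.79 (SE 0.31), 1.73-fold lower, with an adjusted p of 0.045 from limma. The call was lost without MP library 1 (−0.51, adjusted p = 0.12), MP library 3 (−0.70, 0.073), APL library 1 (−0.74, 0.11) or APL library 2 (−0.65, 0.14), and also with median ratio scaling (0.059), FPKM (0.053) or no filter on low values (0.059). In the fit without MP library 2 it was −1.17, 2.25-fold lower (adjusted p = 0.00051, limma). The decrease of Fos as a call thus rested on the choice of libraries, scaling, measure and filter, while its sign was the same in every setting.

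Fosb (14282, on chromosome 7 from 19302696 to 19310118) encodes a Fos protein induced together with Fos. Its values were 2845, 639 and 1233 scaled fragments in MPs and 491, 315 and 762 in APL cells. MP library 1 was 4.45-fold above MP library 2, which was below APL library 3. The log2 fold change was −1.41 (SE 0.50), 2.67-fold lower, with an adjusted p of 0.032 (limma). It was not called without MP library 1 (−0.86, adjusted p = 0.065), APL library 1 (−1.42, 0.066) or APL library 2 (−1.10, 0.11), and it was −1.93 without MP library 2 (0.002).

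Fosl2 (14284, on chromosome 5 from 32136472 to 32157840) encodes Fra-2, a Fos protein that is produced later and lasts longer than Fos. It had 421, 389 and 362 scaled fragments in MPs and 1042, 1162 and 981 in APL cells. Libraries within a group were close and the groups far apart. The mean was 390 ± 29.4 in MPs and 1061 ± 91.8 in APL cells (SD, n = 3 each). Fosl2 was 2.71-fold higher in the fit on log2 values, with 1.44 as the log2 fold change (SE 0.10, adjusted p = 2.3e-06, limma). It stayed between 1.14 (FPKM) and 1.502 (median ratio scaling) in all settings and was 1.44 without MP library 2. The FPKM value is understated, since 1 was added to values of a few FPKM. Among these genes, Fosl2 was the Fos gene that rose, and the only gene that was not lowest in MP library 2 among the MP libraries.

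Batf (53314, on chromosome 12 from 85686720 to 85709087) encodes a small zipper protein without a transactivation domain, which takes the place of Fos in dimers with Jun proteins. MP libraries held 215, 197 and 296 scaled fragments and APL libraries 397, 402 and 389. The APL libraries lay within 1.03-fold of each other and above all MP libraries. Batf was 1.7-fold higher in APL cells, a log2 fold change of 0.77 (SE 0.15, adjusted p = 0.002, limma), between 0.63 and 0.94 in the other settings and 0.65 without MP library 2 (0.0053).

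Atf3 (11910, on chromosome 1 from 191170296 to 191183333), a stress-induced factor of the ATF family, was close to absent. It had 7, 0 and 3 fragments before scaling in MPs and 1, 7 and 9 in APL cells, so that 3 of the 6 libraries were at or under 3 fragments, the limit taken for detection. Its log2 fold change of 0.91 had an interval from −0.97 to 2.80 (adjusted p = 0.36, limma). It was 0.11 without MP library 2 (adjusted p = 0.91), 0.37 without APL library 3 (0.74), 1.57 without MP library 1 (0.13) and 1.61 without APL library 1 (0.12).

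Egr1 (13653, on chromosome 18 from 34861207 to 34864956), an immediate early zinc finger factor of the monocytic program, had 1352, 521 and 1286 scaled fragments in MPs and 376, 346 and 378 in APL cells. All 3 APL libraries were below all MP libraries, MP library 2 included. The mean was 1053 ± 462 in MPs and 366 ± 17.8 in APL cells (SD, n = 3 each). In limma's fit on log2 values Egr1 was 2.64-fold lower, with −1.40 as the log2 fold change (SE 0.31, adjusted p = 0.0037). Leaving out MP library 2 gave −1.85 with an SE of 0.11, 3.59-fold lower (adjusted p = 5.4e-07), and across all settings the value lay between −1.85 and −1.16. Egr2 (13654, on chromosome 10 from 67534469 to 67542188), its relative in macrophage differentiation, had 11, 2 and 7 fragments before scaling in MPs and 11, 13 and 8 in APL cells. Its log2 fold change of 0.99 had an interval from −0.12 to 2.09 (adjusted p = 0.10, limma), and was 1.42 without MP library 1 (0.03), 1.68 with quantile normalization (0.012) and 0.44 without MP library 2 (0.35).

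Gene by gene, permuting the group labels exactly (two-sided) gave p = 0.1 for Junb, Fosl2, Batf and Egr1, p = 0.2 for Jun, Fos, Fosb and Egr2, p = 0.4 for Jund and p = 0.6 for Atf3. With 3 libraries against 3, this exact permutation cannot go below p = 0.1.

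**Figure D2:**
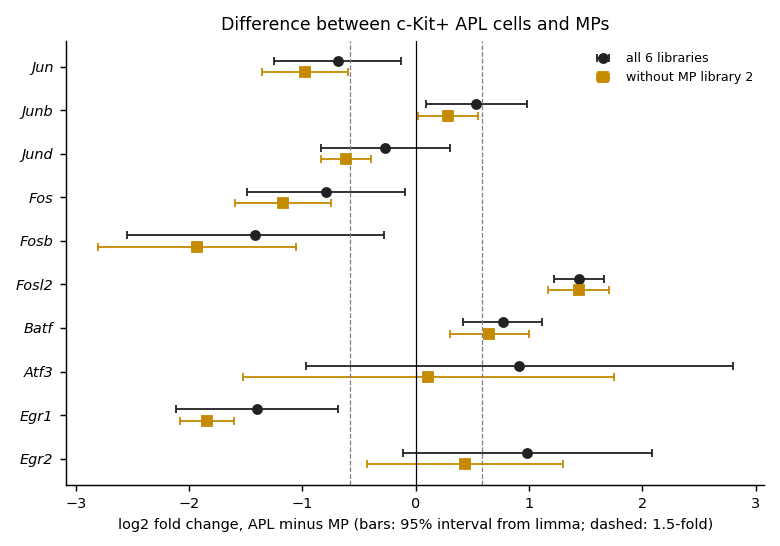
Log2 fold change of each gene, APL minus MP, with its 95% interval from limma, for all 6 libraries (black circles) and without MP library 2 (yellow squares). Dashed lines mark a 1.5-fold change. Without MP library 2, Jund also lay past this line on the lower side, while Fosl2 stayed at 1.44.

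Without MP library 2, 5 of the 10 genes were called lower (Jun, Jund, Fos, Fosb and Egr1) and 2 higher (Fosl2 and Batf), against 22.5% and 21.5% of the 14089 genes then tested. Leaving it out was chosen for emphasis after the values were seen, although each library was left out in turn.

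The composition of the Jun and Fos families was compared within each library, as shares of summed FPKM, where a factor common to the library cancels. Jun made up 63.6%, 59.8% and 57.5% of the Jun family in MPs and 43.9%, 39.1% and 46.0% in APL cells. Junb made up 22.6%, 27.7% and 28.5% in MPs and 42.8%, 46.9% and 42.1% in APL cells. MP library 2 did not stand apart from the other MP libraries in these shares, and the groups did not overlap for Jun or Junb (exact permutation p = 0.1 each, the smallest possible). FPKM of Jun was 2.33 ± 0.427 times that of Junb in MPs and 0.983 ± 0.134 times in APL cells (SD, n = 3 each). The share of Jund was 13.5% ± 0.797 in MPs and 13.1% ± 1.06 in APL cells, with overlap (exact permutation p = 0.6).

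Fos was the main Fos gene in all libraries, with a share of 84.6% ± 3.57 in MPs and 82.0% ± 1.15 in APL cells, and the groups overlapped. The share of Fosl2 was 1.47%, 3.58% and 1.79% in MPs and 9.98%, 12.4% and 6.92% in APL cells, that of Fosb 17.9%, 10.6% and 10.7% against 8.40%, 6.07% and 9.68%. Neither share overlapped between the groups (exact permutation p = 0.1 each). Fosl1, the remaining Fos gene, was at most 0.238% of the family in any library. The ratio of Fos to Jun in FPKM was 1.08 ± 0.123 in MPs and 0.998 ± 0.0157 in APL cells, so that these genes were close to equal in level in all 6 libraries, also in MP library 2 (0.946).

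**Figure D3:**
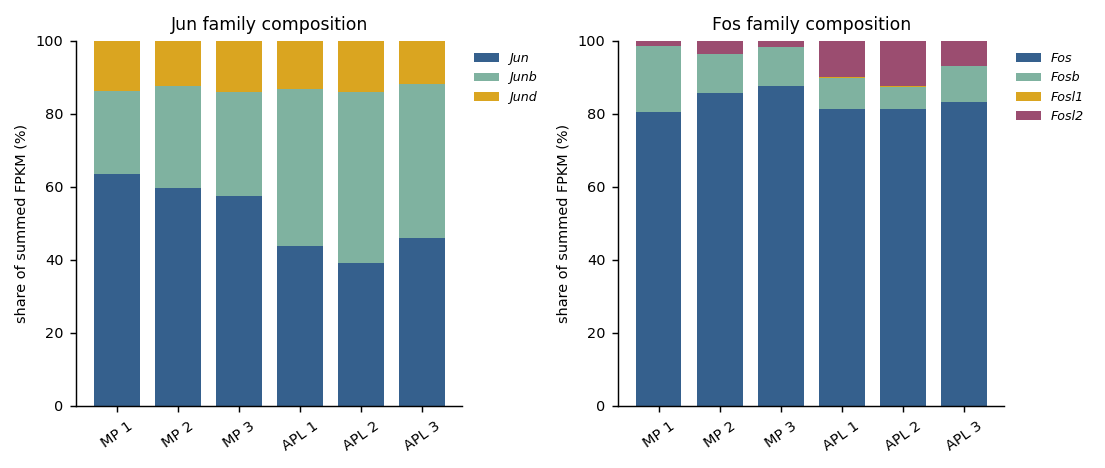
Share of each gene in the summed FPKM of the Jun family (left) and the Fos family (right) in each library, as stacked bars from 0 to 100%. Junb takes 42.1% to 46.9% of the Jun family in APL cells and 22.6% to 28.5% in MPs, and Fosl2 takes 6.92% to 12.4% of the Fos family in APL cells and 1.47% to 3.58% in MPs.

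The spread between libraries of a group differed among the genes and between the groups. Within MPs, the SD of the log2 value was 1.08 for Fosb, 0.77 for Egr1, 0.68 for Fos, 0.60 for Jund, 0.51 for Jun and 0.45 for Junb. The median SD over the 11061 genes with a mean of at least 50 scaled fragments was 0.142, and between 96.5% (Junb) and 99.7% (Fosb) of these genes had a smaller SD than the 6 genes just named. Batf had an SD of 0.31, with 89.0% of genes below it, and Fosl2 one of 0.11, with 36.6% below it. Within APL cells the SD was 0.64 for Fosb, 0.34 for Fos and 0.32 for Jun, where APL library 3 was the highest, against a median of 0.0968. Fosl2 had an SD of 0.12, with 63.8% of genes below it, Egr1 one of 0.07 and Batf one of 0.02. Egr1 therefore had a wide spread in MPs, and in APL cells a spread smaller than that of most genes, with 32.7% of genes below it.

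MP library 2 was the MP library that stood apart for most of these genes. Of the 8 genes with an MP mean of at least 50 scaled fragments, 6 (Jun, Junb, Jund, Fos, Fosb and Egr1) were lower in MP library 2 than in either other MP library by over 1.5-fold, which held for 0.735% of the 10879 genes at that level. Fos was 2.50-fold and 1.91-fold lower than in MP libraries 1 and 3, Egr1 2.60-fold and 2.47-fold lower, and Jund 2.11-fold and 2.02-fold lower. The same comparison named none of the 10 genes for MP library 1 or MP library 3, although MP library 3 differed from the other MP libraries in more genes. MP library 2 was not shallow, with 22976905 fragments against 23606024 and 26932327. Among the APL libraries, library 2 was also the lowest for Jun, Fos, Fosb and Egr1, but not for Junb or Jund.

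Many other immediate early genes were also lowest in MP library 2 among the MP libraries. In a list of 24, 19 reached an MP mean of 50, 16 of these were lowest in MP library 2 (not Myc, Nr4a2 or Plk3), and 9 were over 1.5-fold lower in MP library 2 than in both others: Ier2, Nr4a1, Dusp1, Zfp36, Btg2, Klf2, Klf4, Ppp1r15a and Nfkbia. Klf2, a factor of quiescence, had 301, 70.5 and 194 scaled fragments across the MP libraries, and Dusp1, the phosphatase that shuts off stress kinases, 2585, 995 and 1943. Mature neutrophil markers moved in the same direction, with 5 of 7 over 1.5-fold lower in MP library 2 (Ltf, Camp, Ngp, S100a9 and Mmp9). Their summed FPKM, mostly that of S100a8 and S100a9, was 18375, 11827 and 15308 in MP libraries 1 to 3. Ngp, a neutrophil granule protein, had 19906, 9755 and 19104 scaled fragments. Of the 5 monocyte and macrophage markers, Cd14 and Lyz2 were also that much lower. The heat shock genes Hspa1a and Hspa1b went the other way, with 135, 334 and 126 and with 145, 479 and 161 scaled fragments, a pair among the 0.0643% of genes that were over 1.5-fold higher in MP library 2 than in both others. These genes are near-identical copies, and fragments could be divided between them. The 7 c-Kit+ progenitor markers were within 1.5-fold, although 5 of them were lowest in MP library 2. So were all 5 monocyte and macrophage markers, and 0 of the 11 heat shock genes with an MP mean of at least 50. The share of all genes that were lowest in MP library 2 was not counted. The part of neutrophil content, of monocytic cells or of handling in the values of Fos, Jun and Egr1 was not tested.

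**Figure D4:**
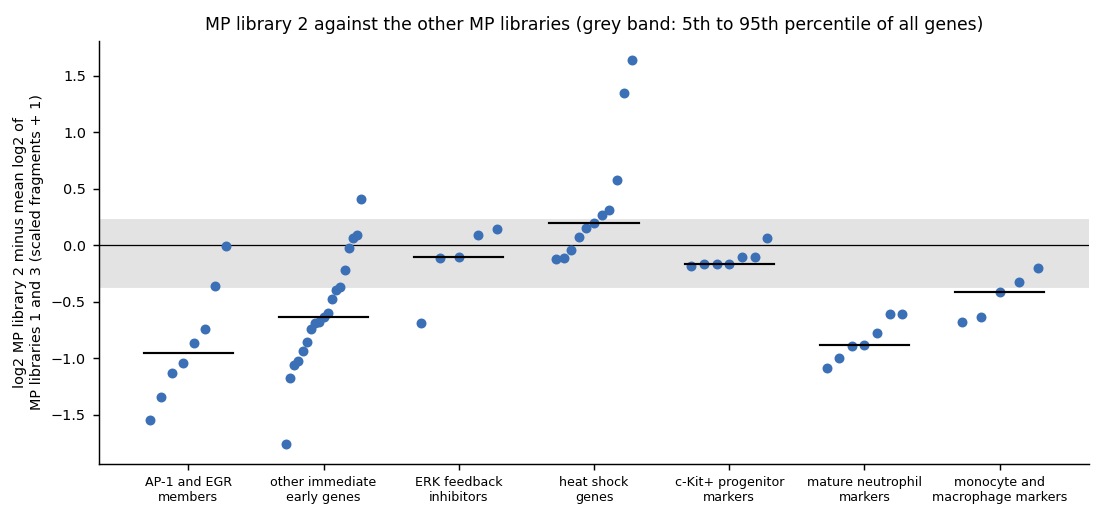
Log2 scaled fragments (plus 1) of MP library 2 minus the mean of MP libraries 1 and 3, for genes with an MP mean of at least 50, by list. Lines are medians and the grey band runs from the 5th to the 95th percentile of all 10879 genes (−0.37 to 0.22). The median was −0.95 for the AP-1 and EGR genes, −0.63 for the other immediate early genes, −0.88 for mature neutrophil markers and 0.20 for heat shock genes.

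Between the groups, the other immediate early genes did not move as one. Of the 24, 23 were tested, and 9 were called higher in APL cells, 3 lower and 11 neither. Their median log2 fold change was 0.0034, against −0.10 over all genes tested. Over all genes tested, 21.7% were called higher and 24.4% lower, shares that also apply to the lists below. Gadd45b, a stress factor that binds the JNK kinase MKK7, rose from 230 ± 4.18 to 1649 ± 56.9 scaled fragments (log2 fold change 2.83), Trib1, a pseudokinase that promotes loss of C/EBPα, from 36.8 ± 15.5 to 259 ± 79.8 (2.83) and Socs3, an inhibitor of cytokine receptors, from 36.4 ± 11.3 to 147 ± 7.92 (2.03). Nr4a1, an orphan nuclear receptor, fell from 50.6 ± 18.3 to 16.03 ± 1.478 (−1.53) and Dusp2, a nuclear phosphatase of ERK, from 947 ± 200 to 363 ± 70.2 (−1.38). The adjusted p of these 5 genes was at most 0.0023 (limma). Without MP library 2, 7 of the list were called lower and 7 higher, and Dusp1 (−1.05, adjusted p = 0.0032), Zfp36 (−0.77, 0.0019) and Klf2 (−1.29, 0.0019) were then among the lower ones.

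The relatives and partners of the 10 genes included 14 further names, of which 11 were tested, 5 were called higher, 0 lower and 6 neither. Of the co-repressors that bind EGR proteins, Nab2 rose from 108.6 ± 10.97 to 441 ± 24.3 scaled fragments (log2 fold change 2.02, adjusted p = 1.3e-06, limma) and Nab1 from 1302 ± 66.3 to 2052 ± 78.1 (0.66, 4.2e-05). Egr1 fell in the same libraries. Atf4, the effector of the integrated stress response, rose from 5178 ± 670 to 11318 ± 1240 (1.13, 3.2e-05). Batf2 and Fosl1 were also called higher at low levels. Egr3, Egr4 and Batf3 did not pass the filter on low values.

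Upstream of the immediate early promoters, 16 kinases and SRF or ETS factors were tested, with 4 higher, 1 lower and 11 not called. The shares over all genes were 21.7% higher and 24.4% lower. Srf, whose protein binds CArG boxes, rose from 1831 ± 92.2 to 2937 ± 256 scaled fragments (log2 fold change 0.68), and Mkl1, the actin-regulated coactivator of SRF, from 1198 ± 80.1 to 2661 ± 195 (1.15). Map2k1, which encodes the ERK kinase MEK1, rose by 0.66 on the log2 scale. Mapk9, which encodes the Jun kinase JNK2, fell from 3127 ± 221 to 1159 ± 67.3 (−1.43). Their adjusted p was at most 9.1e-05 (limma). Of the 8 feedback inhibitors of ERK, 1 was higher and 4 lower: Spry2 rose from 293 ± 13.4 to 1025 ± 51.5 (1.804, adjusted p = 2.8e-07, limma), whereas Spred1 (−1.17) and Spred2 (−0.96) fell. Without MP library 2, 7 of these were tested, and 2 were called lower. Spry4, with 36.5, 31.4 and 33.4 scaled fragments in MPs and 0 in every APL library, was then not tested. It no longer met the filter, which needs values in at least 3 libraries. With all 6 libraries, its log2 fold change was −5.12 (adjusted p = 8.3e-07, limma). Dusp4, at low levels, was tested but no longer called (−1.48, adjusted p = 0.076, limma).

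Heat shock genes, a list that responds to handling, held 12 names with 11 tested, 2 called higher, 3 lower and 6 neither. Hspa1b (1.18, adjusted p = 0.024), uncertain because of its near-identical copy and at 1.72 without MP library 2 (3.5e-06), and Bag3 (0.69, 0.0011), a co-chaperone, were higher, and the mitochondrial chaperonins Hspe1 (−1.29, 1.5e-05) and Hspd1 (−0.92, 2.1e-05) and the cytosolic Hsph1 (−0.83, 0.0021) were lower in limma's fit. Hspa1a, with an adjusted p of 0.15, was called higher in the fit without MP library 2 (1.03, adjusted p = 0.00027).

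The labelled cell types were checked on marker lists. Kit was present in all 6 libraries, at 10668 ± 272 scaled fragments in MPs and 5929 ± 132 in APL cells, and of 7 c-Kit+ progenitor genes 4 were called higher and 2 lower in APL cells. Primary granule genes were among the higher ones, with Mpo rising from 222200 ± 9727 to 517840 ± 51941. Cd34, a surface marker of early progenitors, fell from 6684 ± 1096 to 82.7 ± 8.40 (log2 fold change −6.31, adjusted p = 5.6e-09, limma), so that the APL cells were c-Kit+ cells almost without Cd34 mRNA. Among 5 monocyte and macrophage markers 4 were higher and 1, Csf1r, lower in APL cells. Their summed FPKM, mostly that of Lyz2, was 276 to 430 in MPs and 1098 to 1185 in APL cells. Of 7 mature neutrophil markers 2 were higher and 2 lower (summed FPKM 11827 to 18375 and 45649 to 59534). These sums were mostly those of S100a8 and S100a9, the 2 higher ones, whereas Ltf (−1.42) and Ngp (−1.46) were lower on the log2 scale. Of erythroid markers 4 of 4 tested were lower (196 to 232 and 8.21 to 16.9), as were 3 of 4 megakaryocyte markers (60.4 to 93.7 and 3.02 to 4.10) and 2 of 3 B cell markers (12.2 to 14.7 and 0.305 to 0.638). Mast cell and basophil markers gave 1 higher and 3 lower of 5 (49.2 to 68.0 and 42.1 to 49.9), and of the T cell markers, at 0.643 to 1.59 and 0.782 to 1.13 FPKM in sum, the 1 tested was not called. These differences in marker mRNA moved with the comparison of the AP-1 genes, and their part in it was not tested.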

How the data were processed

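RNA-seq of 6 libraries was analysed, 3 per group. The authors deposited, per gene and library, an FPKM value and a fragment value, which is a signal on the scale of fragments that the authors had multiplied by a factor of each library. The value of 1 fragment was between 0.867 and 1.23, and after division by it 81.5% to 87.1% of nonzero values were whole within 0.01. Totals were 20608715 to 28382785 fragments. The submitters' processing notes list CASAVA 1.8 and TopHat2 2.0.6 with mm10, and the paper's methods STAR, HTSeq-count and DESeq2 with mm9. Which of them made the table is not given in the sources used here.

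Since the values are not counts, limma 3.58.1 in R 4.3.3 (lmFit, eBayes with a trend) was fitted on log2(scaled fragments + 1) over genes with at least 1 in at least 3 libraries, with Benjamini-Hochberg adjustment over all genes. Fold changes on this scale understate those of low genes. Calls needed an adjusted p under 0.05 and over 1.5-fold. The paper's methods give the same fold and a P under 0.05, without stating whether it is adjusted. On simulated data for this comparison (11907 genes, 200 changed), 96.5% of changed genes were recovered with 14 false calls. Recovery for genes with fold changes as small and spreads as wide as those of Jun, Junb and Fos was not tested. From each list up to 3 called genes per direction with a group mean of at least 50 were named by size of change. Genes named for MP library 2, Batf2, Fosl1, Myc, Nr4a2, Plk3, Hspa1a, Csf1r, Spry4, Dusp4 and S100a8 were chosen after their values were seen. Members and lists were chosen with earlier results of these data known. Locations are from RefSeq on GRCm38.p6, exon numbers from GENCODE for an earlier build. Figures used matplotlib 3.10.9 in Python 3.11.15.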

Additional observations from a re-analysis of the deposited data

How the results depend on the processing

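Under 16 alternatives (filter, pseudocount, scaling, FPKM, voom weights, the block, each library left out, no fold threshold), none of the 157 values of the 10 genes changed sign, 135 kept their side of the threshold, 14 lost a call and 8 gained one. The filter, the block and the fold threshold leave the fold change itself as it was, so that the sign could not change under them. When single libraries were omitted in turn, between 1 and 5 of the 10 genes were called lower and between 2 and 4 higher, against 4 and 2. The same omissions gave 2913 to 3507 lower and 2734 to 3256 higher among all genes, of 14068 to 14199 tested. Among all genes, 1980 were called lower with FPKM (11131 genes tested) and 5443 with the adjusted p alone, against 3558. The FPKM fit tested fewer genes. It also added 1 to FPKM values, which understates the fold changes of genes at a few FPKM. How much each of these mattered was not tested. Scaling to the same total or voom weights moved the median of all genes by −0.132 and −0.133 on the log2 scale, and moved the values of Jun, Fos and Egr1 by a similar amount. Atf3 and Egr2 had no value with FPKM, nor Atf3 with at least 10 scaled fragments. The replicate block gave 3164 genes higher and 3589 lower and changed no call among the 10 genes. It lowered the SE of Jun from 0.25 to 0.13, of Fos from 0.31 to 0.16 and of Fosb from 0.50 to 0.25. Same-numbered libraries deviated from their group means with correlations across 11061 genes of 0.135, −0.00159 and 0.127, so the numbers were not taken as pairs. These correlations over all genes cannot show whether single genes shared a pattern by library number. Library 2 was the lowest in both groups for Jun, Fos, Fosb and Egr1, and the cause was not tested. The list of other immediate early genes had 3 lower calls, and 7 without MP library 2, an alternative added after seeing the data. Atf3 and Egr2 had at most 13 fragments in any library, which limits what their fold changes can show.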
